A study of Homo sapiens with 24 samples.

Results

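Peaks close to the ends of 13 human autosomes (1, 2, 6, 8, 9, 10, 11, 12, 14, 15, 17, 19 and 21) are described here, across 6 deposited peak lists of a MYC-tag chromatin immunoprecipitation study. A peak was taken as an end peak when its midpoint lay within 5 Mb of either end of its chromosome (GRCh37 lengths), so position alone chose the members. This gave 603 end peaks, 9.67% of the 6236 peaks of the series, and 2474 peaks in the interior of the same chromosomes. The ends make up 130 Mb of 1754 Mb, or 7.41% of the length of these chromosomes.

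The cells were PC9, an established lung adenocarcinoma cell line driven by mutant EGFR, and PC9-OR, its osimertinib-resistant form grown in 1 uM osimertinib, an EGFR kinase inhibitor. PC9 was profiled untreated as wild type and with METTL7A-MYC-tag-FLAG overexpression. PC9-OR was profiled in osimertinib as wild type, with the empty vector EV-MYC-tag-FLAG, with METTL7A-MYC-tag-FLAG and with the form METTL7A-MYC-tag-FLAG-K86A. Each of these 6 groups has 2 immunoprecipitated libraries, 2 input libraries and 1 peak list, and the list is of the immunoprecipitated libraries. Wild-type and empty-vector cells carry no tagged METTL7A, so their peaks serve as controls here, and the source of those peaks was not tested. Peak numbering restarts or the peak name changes inside 4 lists, which splits the lists into 10 peak-calling runs. Runs of a list are named first and second in the order in which they stand there, and that a run stands for 1 library is an inference.

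The tips of human chromosomes carry telomeric repeats, next to which lie duplicated subtelomeric segments and then, on many arms, some of the most gene-dense and GC-rich chromatin of the genome. Giemsa staining leaves much of this chromatin pale, and such Giemsa-negative bands replicate early and are rich in housekeeping genes. The short arms of chromosomes 14, 15 and 21 are acrocentric, built of ribosomal DNA and satellite repeats, and have no assembled sequence at their ends in GRCh37. That left 23 of the 26 ends where a peak could be placed. METTL7A is a methyltransferase-like protein known from the endoplasmic reticulum and lipid droplets. Peaks are given by position and cytogenetic band, and genes are named only as landmarks of a band, because a GRCh37 annotation and genome sequence were not used here.

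End peaks were found in 5 of the 10 runs, and 558 of the 603, or 92.5%, came from the second PC9-OR METTL7A run. The first parental wild-type run held 35, the second parental wild-type run held 8, and the PC9 METTL7A run and the first PC9-OR METTL7A run held 1 each. The PC9-OR wild-type, empty-vector and K86A runs held none, but they had few peaks anywhere on these chromosomes, with 2 and 1 in the wild-type runs, 5 and 0 in the empty-vector runs and 0 in K86A. For the 5 empty-vector peaks the exact 95% upper bound of the end share is still 52.2%, so a lack of end peaks in the resistant controls was not detectable at this list length.

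In the second PC9-OR METTL7A run, 558 of 2348 peaks lay at the ends, 23.8% with an exact (Clopper-Pearson) 95% interval of 22.1 to 25.5%. The ends thus held 4.29 peaks per Mb against 1.102 in the interior, a ratio of 3.89. The second parental wild-type run, from cells with no tagged protein, had 8 of 41 peaks at the ends, 19.5% (8.82 to 34.9%, an interval that holds 23.8%), and a density ratio of 3.03. The other 3 runs of at least 20 peaks were at or below the share of length. The first parental wild-type run had 5.61% (3.94 to 7.71%), PC9 METTL7A 3.23% (0.0816 to 16.7%) and the first PC9-OR METTL7A run 4.00% (0.101 to 20.4%). The intervals cover counting error only and take peaks as independent, although many lie in clusters.

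**Figure D1:**
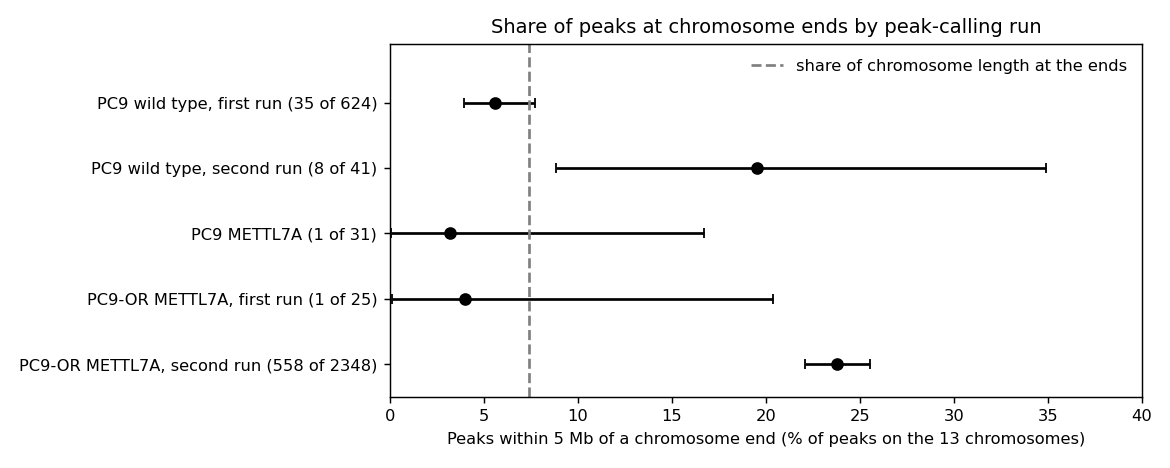
Share of each run's peaks on the 13 chromosomes that lay within 5 Mb of a chromosome end, in percent, for the 5 runs with at least 20 peaks there. Points are shares with exact 95% intervals, and the dashed line is the 7.41% of length at the ends, which the intervals of 2 runs (23.8% and 19.5%) do not reach.

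Over these 5 runs the end share exceeded the share of length by 3.81 percentage points (SD 9.67, n = 5 runs), above it in 2 runs and below it in 3. A two-sided exact sign-flip permutation test over runs gave p = 0.50, and the smallest p that 5 runs allow is 0.0625. An excess of peaks at chromosome ends was thus seen in 2 runs and did not hold across runs. In the second parental wild-type run 5 of the 8 end peaks lay at 2q and 8q, and without chromosomes 2 and 8 its density ratio was 1.37 in place of 3.03, while that of the second PC9-OR METTL7A run was 2.585. Without the second PC9-OR METTL7A run the mean difference was 0.675 percentage points, and without the second parental wild-type run it was 1.74, each with a permutation p of 1.00. The METTL7A runs averaged 10.3% at the ends (SD 11.6, n = 3 runs) and the wild-type runs of at least 20 peaks 12.6% (SD 9.83, n = 2 runs). The difference of -2.23 percentage points was smaller than the spread between runs (exact permutation test over runs, two-sided, p = 0.80, where 0.10 is the smallest possible). Both control runs here are parental and from 1 list, while 2 of the 3 METTL7A runs are from 1 list of resistant cells in osimertinib, so METTL7A, resistance and drug cannot be told apart in this difference. Its sign turned without the PC9 METTL7A run, at 1.32, without the first PC9-OR METTL7A run, at 0.935, and without the second wild-type run, at 4.72 percentage points.

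The excess in the second PC9-OR METTL7A run was spread very unevenly over the ends. The long-arm ends of chromosomes 8 and 2 held 112 and 101 peaks, together 38.2% of the end peaks of this run. The 8q end lies wholly in 8q24.3, the band of SCRIB, a cell polarity protein, and RECQL4, a DNA helicase. The 2q end lies in 2q37.3, the band of HDAC4, a histone deacetylase, and PDCD1, the immune checkpoint receptor PD-1. Their densities were 22.4 peaks per Mb (exact 95% Poisson interval 18.4 to 26.95) and 20.2 (16.5 to 24.5), against 0.528 and 1.24 per Mb in the interior of chromosomes 8 and 2.

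The 19q end followed with 47 peaks, 9.40 per Mb, in 19q13.42 and 19q13.43, the latter the band of TRIM28, the corepressor that zinc-finger proteins recruit. The 9q end held 39, 7.80 per Mb, of which 32 lay in 9q34.3, the band of NOTCH1, a cell surface receptor of cell fate signalling. The 14q end held 31, 6.20 per Mb, of which 20 lay in 14q32.33, the band of the kinase gene AKT1 and of the immunoglobulin heavy chain locus. The intervals of 8q and 2q overlapped each other and none of the others, and from 19q down each end's interval overlapped that of the next in order. The 6q end (6q27, the band of TBP, the TATA-box binding protein) held 23 and the 12q end 22, of which 21 lay in 12q24.33, the band of POLE, a replicative DNA polymerase subunit. The 1p, 2p, 15q and 17p ends held 21 each, and the 11p end 20, of which 17 lay in 11p15.5, the band of the imprinted genes IGF2 and H19. The 17q end held 18, all in 17q25.3, the band of FASN, the fatty acid synthase gene. The 19p end held 14, 12p 13, 21q 12 and 10q 10.

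The remaining 6 assembled ends held at most 5 peaks each, where interior windows of 5 Mb held a median of 2. The 1q end held 5 peaks, 6p held 4, 10p held 2 and 11q held 1. The short-arm ends of chromosomes 8 and 9 held none, which allows up to 0.738 peaks per Mb each (exact 95% Poisson bound). The contrast within chromosome 8, 112 peaks at the long-arm end and 0 at the short-arm end, was the widest of any chromosome. The 10 chromosomes with both ends assembled held 378 peaks at long-arm ends and 116 at short-arm ends, a ratio of 3.26, with the long-arm end ahead on 7 of the 10. The long-arm share rests much on 8q and 2q, which make up 213 of the 378. In the first parental wild-type run the same 10 chromosomes held 17 peaks at long-arm ends and 15 at short-arm ends. That is a ratio of 1.13, with the long-arm end ahead on 4 of the 10.

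**Figure D2:**
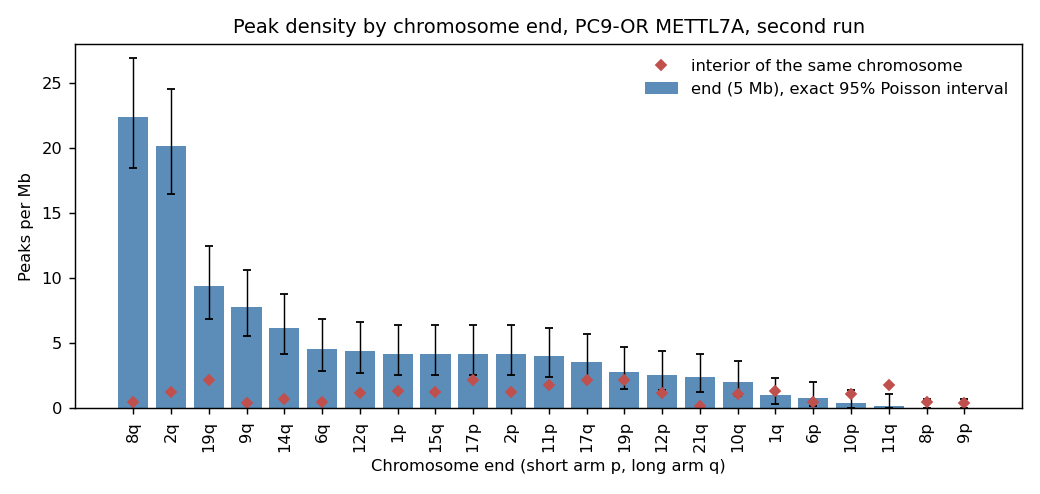
Peaks per Mb of the second PC9-OR METTL7A run at the 23 assembled ends (bars, with exact 95% Poisson intervals) and in the interior of the same chromosome (diamonds). 8q and 2q reach 22.4 and 20.2 per Mb, and 8p and 9p hold no peak.

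Compared with the interior of its own chromosome, an end was denser at 18 of the 23 assembled ends. The Poisson interval of the end lay above the interior density at 14 ends, held it at 8 and lay below it at 1, the 11q end, with 0.200 against 1.84 per Mb. With both ends of a chromosome summed the ratio to the interior exceeded 1 on all 13 chromosomes, from 1.07 on chromosome 10 and 1.14 on chromosome 11 to 9.84 on chromosome 2 and 21.2 on chromosome 8. Chromosome 21 reached 7.63, with 6 peaks in its interior.

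To set the ends beside other stretches of equal length, 345 windows of 5 Mb were laid on the chromosomes, the 26 ends and 319 interior windows. Stretches shorter than a window next to the long-arm ends were left out, 28.9 Mb in all with 65 peaks of the second PC9-OR METTL7A run. Interior windows without a peak were kept. Among them are all windows of chr14:5000001-20000000 and of the same stretch of chromosome 15, which lowers the interior share and density. Windows at least 2 times as dense as the mean of the 13 chromosomes (1.34 peaks per Mb) made up 15.4% of all windows in the second PC9-OR METTL7A run. Of the 26 ends 14 passed this value, and of the interior windows 39, or 12.2%. The 8q and 2q ends ranked 1st and 2nd of all windows, above the fullest interior window, which held 62 peaks at chr11:65000001-70000000, from 11q13.1 to 11q13.3. The 19q end ranked 4th and the 9q end 7th. In the first parental wild-type run 14.2% of all windows passed, and 3 of the 26 ends did, a share near that background. In the second parental wild-type run 4 of the 26 ends and 8.78% of the interior windows passed. Any window with a peak passed there, since that run was so thin.

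The excess fell off within the 5 Mb. In the second PC9-OR METTL7A run, density over all 26 ends was 3.35 peaks per Mb in the outermost Mb, 5.65, 4.27 and 5.96 in the next ones, and 2.23 between 4 and 5 Mb. It was 1.73 between 5 and 6 Mb and 1.35 between 6 and 7 Mb. Without chromosomes 2 and 8 the outermost 4 bins still held between 2.73 and 3.82 peaks per Mb, against 1.73 between 4 and 5 Mb and 1.18 between 5 and 6 Mb. The outermost Mb was thus not the densest, and includes the unassembled tips. The first parental wild-type run showed no such decline, with 0.192 to 0.423 peaks per Mb inside 5 Mb and 0.269 to 0.462 between 5 and 10 Mb.

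**Figure D3:**
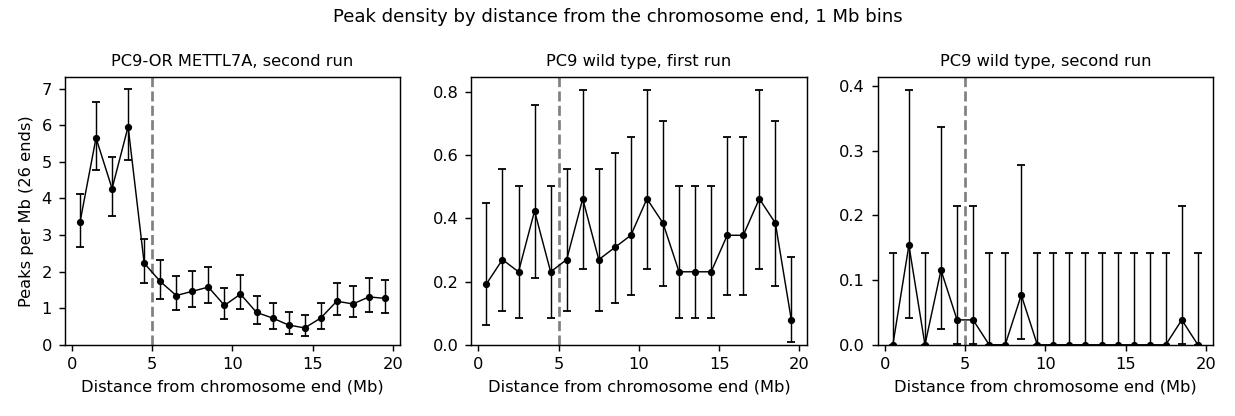
Peaks per Mb in 1 Mb bins of distance from the chromosome end, summed over the 26 ends, with exact 95% Poisson intervals, for 3 runs on their own axes. The dashed line marks 5 Mb. The second PC9-OR METTL7A run drops from 5.96 between 3 and 4 Mb to 1.73 between 5 and 6 Mb.

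In the second PC9-OR METTL7A run Giemsa-negative bands held 5.42 peaks per Mb at the ends and 1.71 in the interior, a ratio of 3.17. All other bands held 1.65 and 0.695, a ratio of 2.37. Those other bands at the ends, 38.9 Mb, include the unassembled 5 Mb short-arm ends of 14, 15 and 21, which lowers the 1.65. Their interior was not limited to assembled sequence either. The ends were therefore denser within both stain classes in this run, by less than the 3.89 over all bands. Gene density and base composition were not measured, and their part in the result was not tested.

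End and interior peaks of this run had equal median heights. The median deposited fold enrichment, the authors' value of fragments at the summit over local background, was 4.47 in both places, and the interquartile ranges were 4.43 to 5.22 at the ends and 4.37 to 5.22 in the interior. The fold takes few values, since most peaks rest on a handful of fragments. The number of fragments at a summit, solved from the deposited values, was 5 at 179 of the 558 end peaks, 6 at 151, 4 at 82 and at most 13. The highest peaks were interior: up to 680 fragments and a fold of 10.4 there, against 13 and 8.95 at the ends. A fold of 4.47, shared by 150 end peaks, is 5 fragments over the lowest local background of the run. Median width was 395 bp at the ends and 389 bp in the interior. Peaks with a −log10 q of at least 5 made up 4.48% of end peaks (25 of 558) and 4.75% of interior peaks.

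Across the 3 runs with at least 5 end peaks, the median width of end peaks exceeded that of interior peaks in each, by 6 bp in the second PC9-OR METTL7A run, 17 bp in the first and 44.5 bp in the second parental wild-type run. The mean of 22.5 bp gave a two-sided exact sign-flip permutation p of 0.25, the smallest that 3 runs allow. The medians of fold and of fragments differed by -0.00469 and -0.333 on average, each with an exact permutation p of 1.00.

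Local background at the end peaks was mostly at its floor, the most common background value of the run and a relative measure of its usable depth. In the second PC9-OR METTL7A run 78.7% of end peaks and 76.1% of interior peaks lay at no more than 1.1 floors. The 8q and 2q end peaks both had a median of 1.00 floor. The 19q end stood apart with a median of 3.14 floors, 14.9% of its peaks at no more than 1.1 floors, and a median of 9 fragments against 5 to 6 at the other ends with at least 10 peaks. Within it the median was 4.35 floors between 3 and 4 Mb from the tip. In the first parental wild-type run the end peaks lay on a higher background than the interior ones, with medians of 1.84 and 1.26 floors and 22.9% against 43.0% at no more than 1.1 floors, a difference not tested within the run. With only peaks at no more than 1.1 floors kept, the density ratio of ends to interior was 4.02 in the second PC9-OR METTL7A run and 0.395 in the first parental wild-type run.

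The highest end peak of the second PC9-OR METTL7A run, the only run ranked here, was chr14:103598929-103599476 in 14q32.32, with 11 fragments, a fold of 8.95 and 9.17 as its −log10 q. It was followed by chr19:58110968-58111971 in 19q13.43, with a fold of 8.59 and 13 fragments over a background of 1.85 floors. A fold of 8.20, with 10 fragments, was shared by chr15:101329511-101330180 in 15q26.3 (the band of IGF1R, the insulin-like growth factor receptor gene), chr17:4416243-4417761 in 17p13.2 and chr2:239940802-239941247 in 2q37.3. The 17p peak was also the widest end peak, at 1519 bp. The 1q end, with 5 peaks, held the 6th highest, chr1:244614345-244614680 in 1q44, with a fold of 7.93 and 11 fragments. The 8q end, although it held most peaks, entered the list 8th, with chr8:143462612-143463181 at a fold of 7.46, level with chr14:104165306-104165727.

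In this run 23 end peaks had a fold of at least 6.71. Of these 7 lay at 8q, 3 each at 14q and 19q, 2 each at 2p and 2q, and 1 each at 1p, 1q, 6q, 15q, 17p and 17q. The other 19q members were chr19:58427489-58428185, with a fold of 6.91, and chr19:56206273-56206619, with 6.89. At 6.71 itself, with 8 fragments, 13 peaks were tied, 6 of them at 8q. Some crowded ends held only low peaks: the 9q end, with 39 peaks, had none above a fold of 5.97, nor had 12q with 22 or 21q with 12, and the 11p end had none above 5.22. The leading peak of the 6q end, chr6:170492855-170493803, reached 6.71 and that of 19p, chr19:2476962-2477553, reached 6.56. At a fold of 5.97 and 7 fragments stood the leading peaks of 9q (chr9:137698015-137698625), 10q (chr10:134569430-134569916), 12p (chr12:329991-330382), 12q (chr12:133054582-133054999) and 21q (chr21:44762800-44763129), and that of 11p, chr11:1423954-1424283, rested on 6 fragments.

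Peaks stood closer together at the ends. Their density there was 3.89 times that of the interior, which by itself shortens gaps and joins peaks into clusters. Crowding beyond that density was not tested. Neighbouring end peaks of the second PC9-OR METTL7A run were a median of 42.1 kb apart, against 156 kb in the interior, and 25.9% of gaps at the ends were within 10 kb against 15.02%. Merging within 10 kb left 419 clusters from the 558 end peaks, 337 of them (80.4%) single peaks. In the interior it left 1525 clusters from 1790 peaks, 1352 of them (88.7%) single. The largest cluster of the run was interior, with 24 peaks. The largest at the ends held 10 peaks in 32.1 kb at chr8:144586002-144618117, with a neighbour of 7 peaks at chr8:144546585-144574612. At 2q the largest was chr2:240020987-240048630 with 6 peaks, and another 3 there held 5 peaks each, as did 2 at 14q. After merging, 8q was left with 60 clusters and 2q with 65, so 2q was then the fuller.

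Within the 8q end the peaks were densest between 3 and 4 Mb from the tip, with 38, and thin in the outermost Mb, with 3. Within the 2q end they were densest between 1 and 2 Mb from the tip, with 41, and a further 27 lay between 3 and 4 Mb. The 2q end was the only window of 5 Mb with a peak in all 5 runs of at least 20 peaks, which is 0.29% of the 345 windows, and 5 interior windows had a peak in 4. Its peaks in the other runs lay at chr2:239258500-239258740 in PC9 METTL7A, with a fold of 4.33 and 4 fragments, and at chr2:239684667-239685025 in the first PC9-OR METTL7A run, with 4.44 and 9 fragments. The second parental wild-type run had 3 peaks there, chr2:239049538-239050138 with a fold of 7.42, chr2:239482556-239482908 with 4.62 and chr2:241829429-241829786 with 5.58. The first parental wild-type run had 2, near the tip, each with 2 or 3 fragments.

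**Figure D4:**
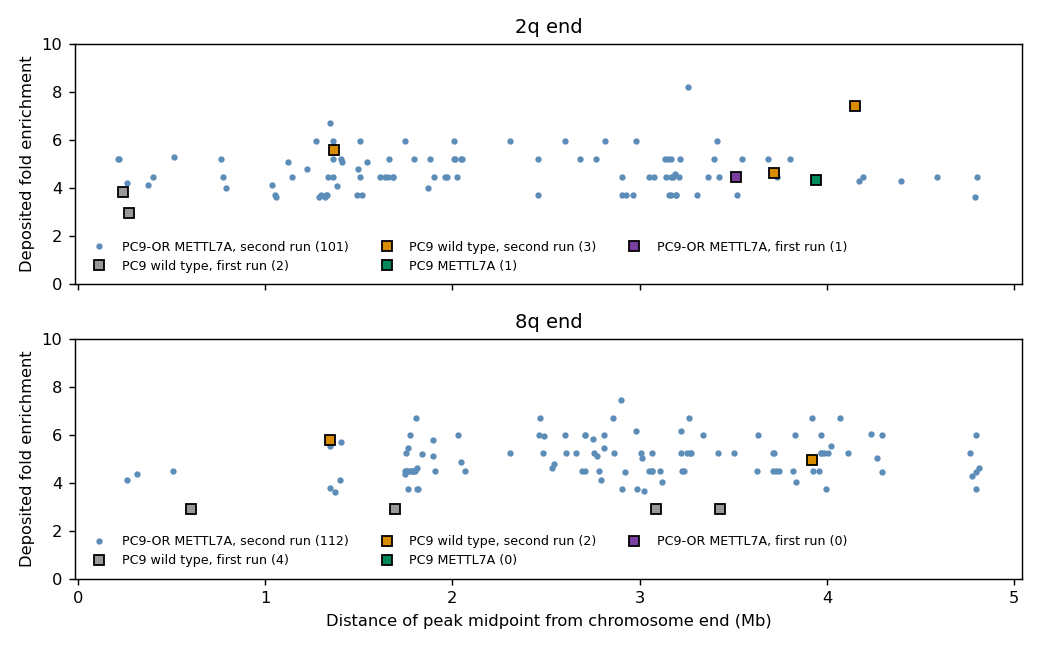
Deposited fold enrichment against distance from the chromosome end, in Mb, for every peak at the 2q end (top) and the 8q end (bottom), colored by run, with the number of peaks in brackets. Heights are not comparable between runs, since each run has its own background; the 2q end holds peaks of all 5 runs and the 8q end of 3.

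The 8 end peaks of the second parental wild-type run lay at 4 ends, all long arms: 3 at 2q, 2 at 8q, 2 at 17q and 1 at 9q. Those 4 ends were ranked 2nd, 1st, 13th and 4th of the 23 in the second PC9-OR METTL7A run. The 8q peaks were chr8:142446471-142446809, with a fold of 4.96, and chr8:145016678-145017067, with 5.78. The 17q peaks were chr17:79409720-79410319, with 5.78, and chr17:80049314-80049615, with 6.30, and the 9q peak was chr9:137302836-137303128, with 6.23. Each rested on 5 to 8 fragments, and this run held no peak at the 19q or 14q ends. Across the 23 assembled ends Spearman's rho between the counts of this run and of the second PC9-OR METTL7A run was 0.488, and 0.584 for the first parental wild-type run, as a description, since the ends are not replicates.

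Peaks of different runs rarely overlapped. With any overlap from 1 bp counted, 2 of the 558 end peaks of the second PC9-OR METTL7A run (0.358%) and 6 of its 1790 interior peaks (0.335%) lay on a peak of another run, with 0.341% over both. They were chr2:241829076-241829655 in 2q37.3, with a fold of 5.55 and 7 fragments, on a peak of the second parental wild-type run, and chr11:879797-880136 in 11p15.5, with a fold of 3.73 and 4 fragments, on a peak of the first. In the second parental wild-type run 1 of 8 end peaks was shared, 12.5%, against 12.2% of all its peaks on these chromosomes. With peaks widened by 1 kb on each side, 9 of the 558 end peaks of the second PC9-OR METTL7A run (1.61%) and 14 of its 1790 interior peaks (0.782%) were shared. In the second parental wild-type run it was 4 of 8 end peaks and 5 of 33 interior peaks. These differences between ends and interior were not tested.

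Close neighbours were more common than overlaps. Of the 8 end peaks of the second parental wild-type run, 5 lay within 10 kb of a peak of the second PC9-OR METTL7A run and all 8 within 100 kb, with a median gap of 2.65 kb. Of its 33 interior peaks 8 lay within 10 kb and 21 within 100 kb. At 8q the gaps were 351 and 149 bp and at 9q 423 bp, while the single end peak of the first PC9-OR METTL7A run lay 1358 bp away and that of PC9 METTL7A 137 kb away. The end peaks of the first parental wild-type run had a median gap of 54.2 kb, against 610 kb in its interior. Peaks were also 3.89 times as dense at the ends as in the interior in the run measured against, and the part of density in these gaps was not tested.

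The 35 end peaks of the first parental wild-type run were spread over 19 ends, with at most 4 at any (2p, 8q and 9q). Of these 29 rested on 2 fragments, the median fold was 2.94, and the highest was 4.85, at chr15:99478096-99478536 in 15q26.3 with 4 fragments. This run also held a peak at the 8p end and a peak at the 9p end, where the second PC9-OR METTL7A run had none, at chr8:3238303-3238691 in 8p23.2 (the band of CSMD1) with 3 fragments and at chr9:632278-632511 in 9p24.3 (the band of the sex determination gene DMRT1) with 2.

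At the limit of 5 Mb the nearest peaks of the second PC9-OR METTL7A run were chr17:4925494-4925863, inside, with a fold of 4.59, and chr8:141355642-141356110, 5.01 Mb from the tip and so just outside, with 3.73. The beta-globin segment of 11p15.4 lay 5.25 Mb from its tip and so outside the limit, with 342 fragments and a fold of 15.6 in PC9 METTL7A and 246 fragments and a fold of 9.61 in the second parental wild-type run.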

How the data were processed

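The 6 lists are in the narrowPeak layout, with start and end in bp, a deposited whole-number score, and a fold enrichment, which is a ratio over local background. The −log10 p and −log10 q of each summit, like the fold, are deposited as the authors' caller wrote them. Per the submitters' processing notes the tools include Bowtie2 2.4.2, MACS2 2.2.7.1 and bedtools 2.30, with build GRCh37; for their settings and the control library, the sources used here give nothing. Read totals were not used here. No deposited q exceeded 0.05. Runs were split by the numbering in the peak names. Fragments and local background at each summit were solved from fold = (fragments + 1) / (background + 1) and the Poisson upper tail, for 6236 of 6236 peaks with a largest misfit of 1.07 times the rounding tolerance. Chromosome lengths and bands came from circlize 0.4.16; the rest used Python 3.11.15, SciPy 1.17.1 and pandas 2.3.3, and was tested on simulated data. Coordinates are 1-based. Members, lists and rules were chosen with earlier results of these data known. Tests over runs used runs of at least 20 peaks. Named peaks are among the 15 highest folds (ties at the last are counted), the highest of ends with at least 10 peaks, shared peaks, those nearest the limit, and all of runs with at most 10 end peaks. The alternatives with Giemsa-negative bands, with low background and without chromosomes 2 and 8 were added after seeing the data.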

Additional observations from a re-analysis of the deposited data

How the results depend on the processing

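The density ratio of ends to interior in the second PC9-OR METTL7A run, 3.89, stayed above 1 under every alternative run. It was 2.67 with ends of 10 Mb, 3.43 with peaks merged within 10 kb, 4.40 without the short-arm ends of 14, 15 and 21, 3.37 without chromosome 2, 3.22 without chromosome 8, 4.30 without chromosome 11, 3.17 in Giemsa-negative bands alone and 2.585 without chromosomes 2 and 8. The 4.40 took only the outermost stretch of those short arms out and left the rest in the interior length. The mean excess of the end share over runs ranged from 0.675 to 5.81 percentage points when 1 run was left out, with exact permutation p from 0.50 to 1.00. METTL7A minus control end share ranged from -9.18 to 4.72 percentage points when 1 run was left out and was 1.96 with runs of at least 5 peaks. With ends of 10 Mb 4 runs in place of 3 had at least 5 end peaks, so the set of runs changed as well. Over these 4 the median fold and fragments differed by 0.166 and 0.375 in favour of the ends (exact sign-flip permutation p = 0.50 each). The difference in floors ranged from -0.118 to 0.287 when 1 run was left out. With peaks widened by 1 kb, 9 of 558 end peaks were shared in place of 2, and 14 of 1790 interior peaks in place of 6. At a −log10 q of at least 5 only 1 run kept 20 peaks, so that test was not run. No paired analysis was possible because most runs cannot be tied to the replicate numbers of the labels. The cause of these shifts was not tested. The short lists of the resistant controls and of PC9 METTL7A limit the comparisons that use them.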
